A study of Homo sapiens with 14 samples.

Results

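Death receptor and caspase genes were examined in mixtures of HEK-293T cells, which derive from human embryonic kidney and grow attached, and Jurkat cells, a suspension line from a human T cell leukemia that is widely used to study killing through FAS. The set held 8 genes of the 58440 in the data, namely the receptors FAS, TNFRSF10A and TNFRSF10B, the adaptor FADD, the initiator caspases CASP8 and CASP10 and the inhibitors CFLAR and XIAP. They were chosen by name for their role in the pathway, and the rows were found by matching the gene identifiers to GENCODE release 44.

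The study put both lines together at 7 percentages of HEK cells, 100, 80, 60, 50, 40, 20 and 0, with Jurkat cells making up the rest of 1000000 cells, to ask how a difference in RNA per cell acts on estimated cell fractions. No culture was treated. The HEK-293T cells grew in DMEM and the Jurkat cells in RPMI, both with serum, and the suspensions were combined after harvest. Each condition had 2 libraries, which the labels call technical replicates, so every spread and p-value below measures variation between such libraries and not between cultures. Polyadenylated RNA was captured on oligo-dT beads, and a fixed volume of ERCC spike-ins, synthetic RNAs of known amount, was added to it.

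Death receptors are surface proteins of the tumor necrosis factor receptor family that carry a death domain inside the cell. When FAS ligand or TRAIL binds, the receptor recruits the adaptor FADD, which gathers caspase-8 or caspase-10 so that they cleave and activate each other and then the executioner caspases. CFLAR encodes c-FLIP, a caspase-8 relative without protease activity that competes at this complex, and XIAP blocks caspases further down. T cells use the FAS route to limit their own numbers.

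The libraries held between 4468822 and 28303668 expected counts on genes, and spike-ins took from 0.674% to 7.65% of counts. A level of 3 counts, used as the floor of detection, stood for between 0.106 and 0.671 CPM, which are counts scaled to a fixed total over genes. PCR copies were not marked, so floors and intervals reflect counting error alone. The T cell and HEK marker lists matched the line names with the exception of GATA3, a gene of the HEK list that T cells also express, at 17.7 ± 0.513 CPM in HEK and 263 ± 142 CPM in Jurkat (SD, n = 2). The summed level of 10 T cell genes lay between 2797 and 3322 CPM in pure Jurkat libraries and between 2.70 and 6.56 CPM in pure HEK libraries, while 10 genes chosen for HEK cells summed to 1877 to 1900 CPM in HEK and 174 to 379 CPM in Jurkat, most of it GATA3. Lists of 5 genes each for B cells, myeloid cells and fibroblasts or endothelial cells summed to at most 6.93, 0.952 and 50.6 CPM in any pure library. Their highest genes were PECAM1 at 37.7 ± 12.7 CPM and CD79A at 6.04 ± 1.26 CPM in Jurkat, and COL1A1 at 10.4 ± 0.678 CPM in HEK (SD, n = 2). File names put the libraries into a set of 8, called AS_1, and a set of 6, called AS_2, whose meaning the sources used here do not give. Both pure HEK libraries were in AS_2 and both pure Jurkat libraries in AS_1, so the line and the file set cannot be told apart in them. The numbers of cells were set by the mixing, but a gene's level in bulk RNA cannot by itself tell fewer cells of a type from less RNA per cell.

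**Figure D1:**
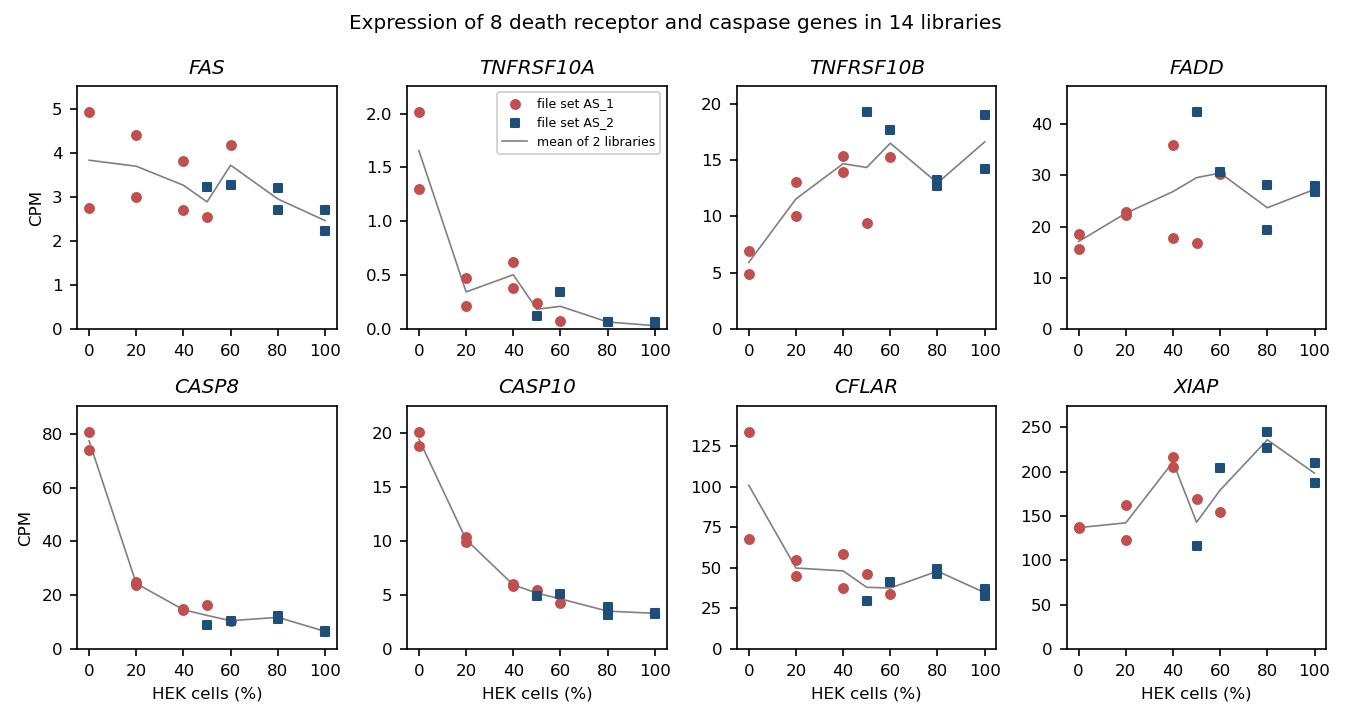
Level of each of the 8 genes in CPM (linear axes from 0, a different range in each panel) against the percentage of HEK cells in the mixture. Each point is 1 of 14 libraries, its colour and shape give the file set, and the line joins the means of 2 libraries. CASP8 and CASP10 dropped steeply between 0 and 20% HEK cells, from 77.4 to 24.4 CPM and from 19.5 to 10.2 CPM, whereas the libraries of FADD and XIAP were widely spread at several mixtures.

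Among the receptors, the pattern differed from gene to gene. FAS (ENSG00000026103, chr10:88953813-89029605, plus strand), the receptor of FAS ligand, was low in every library. It measured 2.22 and 2.70 CPM in pure HEK and 4.92 and 2.74 CPM in pure Jurkat libraries. Its exact Poisson 95% intervals were 1.38 to 3.40 and 1.94 to 3.67 CPM in HEK and 3.09 to 7.45 and 1.60 to 4.39 CPM in Jurkat. The ranges of the lines did not overlap, but the lower Jurkat library stood only just above the higher HEK library and the intervals overlapped. In the mixtures FAS measured, from 80 down to 20% HEK cells, 2.70 and 3.20, then 3.26 and 4.17, 2.54 and 3.23, 2.70 and 3.82, and lastly 4.40 and 2.99 CPM. When the 7 conditions were ordered by mean level, each of the 6 neighbouring pairs overlapped. FAS shares its locus with STAMBPL1 on the same strand and ACTA2 on the opposite one, although its expected counts were whole numbers in all 14 libraries.

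TNFRSF10A (ENSG00000104689), a receptor of TRAIL, was close to the limit of detection. It had 0 and 0.0666 CPM in the pure HEK libraries and 2.01 and 1.30 CPM in the pure Jurkat libraries, the latter with Poisson intervals of 0.921 to 3.82 and 0.562 to 2.55 CPM. Against a floor of 3 counts in each HEK library, the Jurkat mean was at least 6.43-fold higher. No mixed library exceeded 0.624 CPM, and the gene had at most 9.03 counts in any of the 14 libraries. TNFRSF10B (ENSG00000120889), the other TRAIL receptor with a death domain, went the opposite way. It measured 19.0 and 14.2 CPM in pure HEK and 4.92 and 6.93 CPM in pure Jurkat. The mixed libraries read, from 80 down to 20% HEK cells, 12.7 and 13.2, then 17.7 and 15.3, 9.43 and 19.3, 14.0 and 15.4, and lastly 13.1 and 10.0 CPM. All 10 mixed libraries were above both pure Jurkat libraries, and only 20% and 0% HEK cells were separated among neighbours in the order of means.

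The adaptor FADD (ENSG00000168040, chr11:70203296-70207390, plus strand) measured 27.8 and 26.7 CPM in pure HEK and 15.7 and 18.5 CPM in pure Jurkat. The lines did not overlap, yet the libraries at 50% and at 40% HEK cells were further apart than the lines. The mixed libraries of FADD read, from 80 down to 20% HEK cells, 19.3 and 28.0, then 30.6 and 30.3, 16.7 and 42.3, 17.8 and 35.9, and lastly 22.9 and 22.3 CPM. Its lowest mixed library and its highest both came from the 50% mixture.

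The initiator caspases showed a steep gradient. CASP8 (ENSG00000064012, chr2:201233443-201361836, plus strand) measured 6.85 and 6.33 CPM in pure HEK and 74.1 and 80.7 CPM in pure Jurkat. It read, from 80 down to 20% HEK cells, 11.3 and 12.3, then 10.6 and 10.5, 16.3 and 8.78, 14.5 and 14.8, and lastly 23.8 and 25.0 CPM. Most of the descent lay between 0 and 20% HEK cells. CASP10 (ENSG00000003400, chr2:201182872-201229428, plus strand), its close relative and neighbour, measured 3.37 and 3.26 CPM in pure HEK and 18.8 and 20.1 CPM in pure Jurkat. Its mixed libraries read, from 80 down to 20% HEK cells, 3.15 and 3.89, then 5.07 and 4.25, 5.45 and 4.94, 6.02 and 5.89, and lastly 10.4 and 9.91 CPM. For each of these genes 4 of the 6 neighbouring pairs in the order of conditions were separated. For CASP10 the order of means followed the percentage of HEK cells throughout.

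CFLAR (ENSG00000003402, chr2:201116154-201176687, plus strand) measured 32.7 and 36.7 CPM in pure HEK and 67.9 and 134 CPM in pure Jurkat, so that the Jurkat libraries were apart by about as much as the lines. It read, from 80 down to 20% HEK cells, 49.5 and 46.4, then 41.1 and 34.0, 46.5 and 29.6, 58.4 and 37.8, and lastly 44.9 and 54.8 CPM, and 5 of 6 neighbouring conditions overlapped. CFLAR, CASP10 and CASP8 lie side by side on the same strand within 246 kb of chromosome 2. XIAP (ENSG00000101966, chrX:123859712-123913972, plus strand) drew the most counts of the set, with 209 and 187 CPM in pure HEK and 137 and 137 CPM in pure Jurkat. Its mixed libraries read, from 80 down to 20% HEK cells, 227 and 245, then 204 and 154, 170 and 116, 205 and 217, and lastly 122 and 162 CPM. The libraries at 116 and 122 CPM were below both pure lines. Expected counts of CFLAR and XIAP were fractional in all 14 libraries, which means that some of their reads were shared out among genes. The libraries were strand-specific by the methods, but no source used here says whether strand was used in counting, so antisense genes such as CFLAR-AS1, XIAP-AS1, FLACC1 at CASP8 and RHOBTB2 at TNFRSF10B could share reads with the members.

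The stretch before the start of transcription is shown for CASP8, the member with the largest fold between lines that both detected, and for FADD and XIAP, whose levels differed less. The sequences are from RefSeq on GRCh38.p14 and all are on the plus strand, 5′ to 3′, with bases of exons left out. They cover chr2:201233213-201233442 for CASP8, chr11:70203046-70203295 for FADD and chrX:123859458-123859707 for XIAP. Capitals mark GGGCGG or its reverse complement CCGCCC, a GC box of the kind bound by Sp1-like factors.
CASP8: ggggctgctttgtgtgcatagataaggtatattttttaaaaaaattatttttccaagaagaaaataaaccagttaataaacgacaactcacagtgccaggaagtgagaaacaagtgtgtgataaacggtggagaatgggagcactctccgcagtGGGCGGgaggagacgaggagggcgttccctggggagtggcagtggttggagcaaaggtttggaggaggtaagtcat
FADD: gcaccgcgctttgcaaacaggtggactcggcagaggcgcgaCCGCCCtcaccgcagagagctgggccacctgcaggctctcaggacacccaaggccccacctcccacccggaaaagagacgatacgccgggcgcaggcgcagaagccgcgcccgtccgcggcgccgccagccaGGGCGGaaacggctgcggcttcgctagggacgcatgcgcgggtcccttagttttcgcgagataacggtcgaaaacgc
XIAP: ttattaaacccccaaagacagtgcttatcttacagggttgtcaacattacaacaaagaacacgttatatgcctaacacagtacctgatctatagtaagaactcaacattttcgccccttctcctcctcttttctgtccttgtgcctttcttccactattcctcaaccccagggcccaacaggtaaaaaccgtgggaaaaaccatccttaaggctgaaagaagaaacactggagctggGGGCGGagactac
The motif occurred in each of these 3, as it did in 42.6% of the 35116 promoters in the table over 250 bases before the start. The FADD stretch held 32 CG dinucleotides, the CASP8 stretch 6 in 230 bases and the XIAP stretch 4, beside a median of 11 over all promoters. No motif was found before the other 2 starts of CASP8 or in stretches of 250 and 248 bases before 2 starts of CFLAR. A match of letters is not a binding site, and 5 of the 8 genes had an entry in the table.

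To find which members differed between the lines, the 2 pure HEK and 2 pure Jurkat libraries were compared with edgeR's quasi-likelihood test over 15794 genes with Benjamini-Hochberg adjustment. Of the 8 members, 4 were higher in Jurkat, 1 was higher in HEK and 3 did not pass, beside 43.2% of all genes called, 19.0% higher in Jurkat and 24.2% higher in HEK. The median log2 fold change of HEK over Jurkat was -1.30 over the members, also with TNFRSF10A at its bound, and 0.067 over all genes tested. A large share of all genes differed between the lines, and the share of members called is read against that.

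CASP8 had a log2 fold change of -3.78 (SE 0.23, adjusted p = 0.000669, edgeR) and CASP10 one of -2.78 (SE 0.23, adjusted p = 0.00123, edgeR). CFLAR was also higher in Jurkat, with a log2 fold change of -1.77 (SE 0.37, adjusted p = 0.0167, edgeR), as was TNFRSF10A (adjusted p = 0.00841, edgeR), whose fitted value of -5.11 depends on the prior count and is no bound. TNFRSF10B was higher in HEK by 1.24 (SE 0.30, adjusted p = 0.0256, edgeR). FAS gave -0.82 (SE 0.41, adjusted p = 0.166, edgeR), FADD 0.44 (SE 0.22, adjusted p = 0.159, edgeR) and XIAP 0.31 (SE 0.19, adjusted p = 0.253, edgeR), none of which passed. Data simulated at this size gave calls for 10% of genes set to 2-fold and for 84% set to 4-fold, so differences of 2-fold or less were rarely detectable at this size.

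CASP8 and CASP10 passed with any 1 pure library left out. Without the first or the second HEK library the adjusted p (edgeR) was 0.0853 and 0.0682 for CFLAR, 0.108 and 0.0803 for TNFRSF10A and 0.134 and 0.0577 for TNFRSF10B, and without the first Jurkat library it was 0.0674 for TNFRSF10B. With limma on log2(TPM + 1), where TPM is a length-scaled unit, 4 members were called, beside 5961 of 15794 genes. CFLAR was not among them (-1.13, adjusted p = 0.0585, limma). With Bonferroni adjustment over all genes, 65 genes and none of the members passed in edgeR, and CASP8 had an adjusted p of 0.162. The study applied that adjustment to DESeq2, a pairing that was not run here. Unadjusted p-values in DESeq2 were 1.1e-26 for CASP8, 3.5e-09 for CASP10 and 5.2e-05 for CFLAR. They were 0.0039 for TNFRSF10A and 0.012 for TNFRSF10B, so the edgeR result does not tell which members meet the criterion of the study.

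The choice of scale changed the direction for several members. Per spike-in count, pure HEK libraries held 10.0-fold more gene counts than pure Jurkat libraries. The HEK libraries differed in this, with 147 and 97.3 gene counts per spike-in count, beside 12.1 and 12.3 in Jurkat. The paper reports a smaller ratio of mRNA content from its spike-ins, and the fold changes on this scale shift with that factor. With ERCC totals as library sizes the median log2 fold change of all genes was 3.61. On that scale edgeR called 15125 genes, 14616 of them higher in HEK and 509 in Jurkat, where the test above split 3825 to 3002 and library totals without TMM factors 4665 to 2387. CASP8 then measured 1.01 and 0.616 counts per 1000 ERCC counts in HEK and 0.894 and 0.995 in Jurkat, so the lines overlapped (log2 fold change -0.23, adjusted p = 0.678, edgeR). CASP10 measured 0.498 and 0.318 against 0.227 and 0.248, with a log2 fold change of 0.75 that did not pass (adjusted p = 0.209, edgeR). TNFRSF10A gave -2.04 and was not called either (adjusted p = 0.0942, edgeR), and its bound given above holds for CPM only. No member was called higher in Jurkat on this scale, beside 509 of 15794 genes. FAS and CFLAR turned to being higher in HEK, by 2.65 and 1.76 on the log2 scale, both called and both under the median of all genes. FADD, TNFRSF10B and XIAP were higher in HEK by 3.99, 4.83 and 3.88, above that median. The order of the 7 members other than TNFRSF10A by their ratio of means was the same on both scales. This nearly follows from the change of scale, which multiplies all genes of a library by the same factor.

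**Figure D2:**
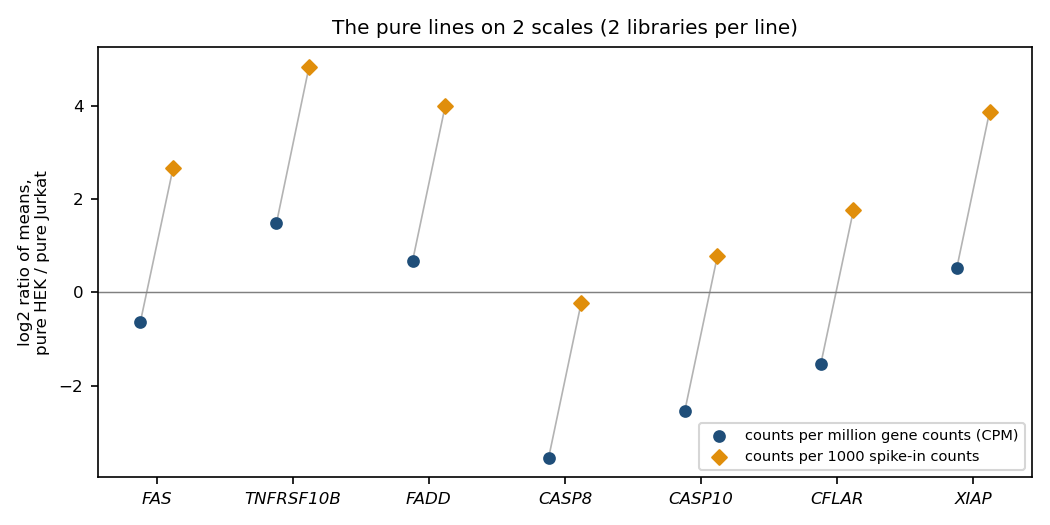
Ratio of the mean of 2 pure HEK libraries to the mean of 2 pure Jurkat libraries on a log2 axis for 7 members, as CPM (circles) and as counts per 1000 ERCC spike-in counts (diamonds), with a line joining both values of a gene. TNFRSF10A is left out because it was at the floor in HEK. On the spike-in scale every member shifted up, CASP8 to a HEK to Jurkat ratio of 0.861 and TNFRSF10B to 28.9, and FAS, CASP10 and CFLAR changed side.

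The balance between inhibitors and initiators was compared per length, as ratios of TPM, the length-scaled unit of RSEM, within a library. CFLAR was 4.79 and 5.03 times CASP8 in pure HEK libraries and 0.648 and 1.01 times CASP8 in pure Jurkat. XIAP was 10.5 and 9.86 times CASP8 in HEK and 0.553 and 0.507 times in Jurkat, and FADD was 6.12 and 6.35 times CASP8 in HEK and 0.295 and 0.304 times in Jurkat. In the mixed libraries CFLAR over CASP8 ran from 1.43 to 3.73, between the pure lines. Such ratios do not depend on the scale of the library, but they carry the gene lengths that RSEM assumed, and where along a transcript these oligo-dT primed reads fell is not given in the sources used here.

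The lines were also set side by side over 54 further genes of the pathway. Of these, 42 could be tested, 14 were higher in Jurkat, 4 were higher in HEK and 24 did not pass, beside the 19.0% and 24.2% of all genes given above, with a median log2 fold change of -0.32, the same with genes at the floor in 1 line at their bounds. Per 1000 ERCC counts, 9 of the 14 had the higher mean in HEK. Both ligands that could be tested were higher in Jurkat. TNFSF10, which encodes TRAIL, had 24.0 ± 11.4 CPM (SD, n = 2) in Jurkat, at least 93.1-fold above the floor in HEK. LTA, which encodes lymphotoxin alpha, had 4.23 ± 0.974 CPM (SD, n = 2) in Jurkat, at least 16.4-fold above the floor. FASLG, TNF and TNFSF15 were at or under 3 counts in each pure library.

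Of the other receptors, TNFRSF10D, a TRAIL receptor with a truncated death domain, was higher in HEK (adjusted p = 0.0126, edgeR) and at least 15.1-fold above the floor in Jurkat, with a mean of 8.69 ± 6.46 CPM (SD, n = 2). Its level in the mixtures was under the one expected from these libraries, as given below. TNFRSF1A, TNFRSF25 and TNFRSF21 had log2 fold changes of -0.44, 0.24 and -0.40 and did not pass. TNFRSF1B was too low to test between the lines, with 0.733 ± 0.0105 CPM in HEK and 1.41 ± 0.854 CPM in Jurkat (SD, n = 2), and TNFRSF10C and TNFRSF11B were at the floor in both.

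The adaptors and kinases had 3 of 9 tested genes higher in Jurkat and the other caspases 3 of 5, with none of either class higher in HEK. The class listed as inhibitors was split, 4 of 9 higher in Jurkat and 1 in HEK. The 4 include XAF1, which acts against an inhibitor rather than as one. XAF1, an antagonist of XIAP, had 146 ± 46.9 CPM in Jurkat and 0.370 ± 0.224 in HEK (SD, n = 2), a log2 fold change of -8.69 (SE 0.51, adjusted p = 0.000643, edgeR). BIRC3, an inhibitor of apoptosis that acts at the TNF receptor complex, had 72.9 ± 1.27 CPM in Jurkat and 0.753 ± 0.132 in HEK (SD, n = 2), a log2 fold change of -6.82 (SE 0.28, adjusted p = 0.00064, edgeR). FAIM, an inhibitor of FAS signalling, was higher in HEK by 2.08 (SE 0.39, adjusted p = 0.0114, edgeR). ENDOG, a mitochondrial nuclease, was higher in HEK by 1.28 (SE 0.30, adjusted p = 0.0217, edgeR). In the mitochondrial arm 1 of 7 tested genes was higher in Jurkat, and among substrates and nucleases 2 of 6 were higher in HEK and 1 in Jurkat.

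**Figure D3:**
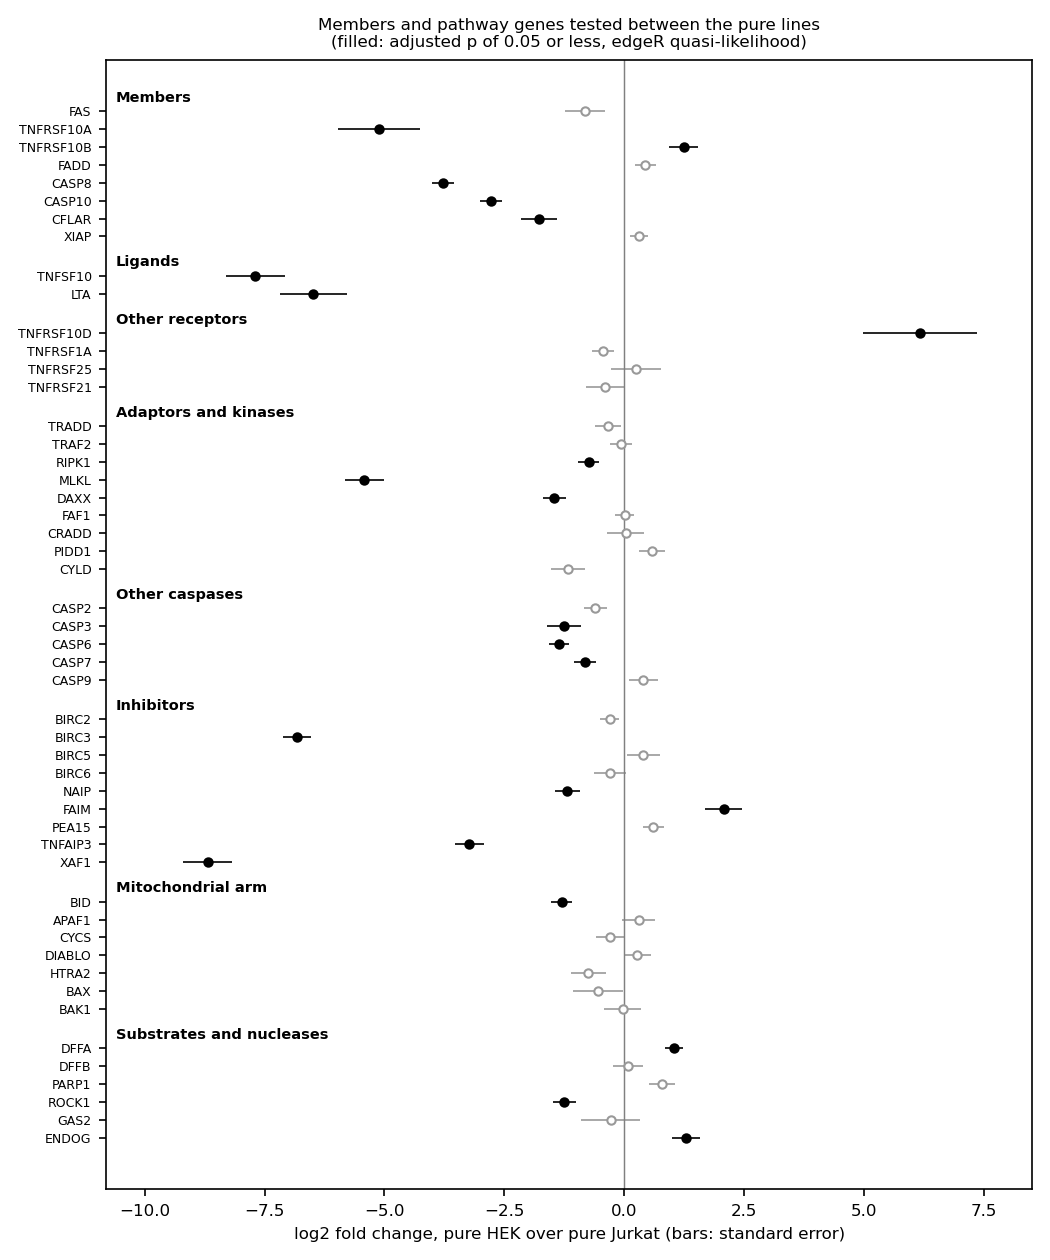
Log2 fold change of pure HEK over pure Jurkat for the 8 members and 42 tested pathway genes by class, with bars for the standard error from edgeR's quasi-likelihood fit. Filled points passed an adjusted p of 0.05, 4 members to the left (higher in Jurkat) and TNFRSF10B to the right. On the spike-in scale FAS, CASP10 and CFLAR lay on the other side. TNFRSF10A, TNFSF10, LTA and TNFRSF10D were at the floor in 1 line, so their points depend on the prior count.

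Whether a member followed the percentage of cells was tested in the 10 mixed libraries, which the comparison of pure lines did not use, as the slope of log2 expression per 10 percentage points of HEK cells. edgeR called 967 of 17242 genes (5.61%), 876 falling (5.08%) and 91 rising (0.528%). Of the 7 members tested, 1 was called, and TNFRSF10A was too low to be tested. CASP10 fell by 0.26 per 10 points (SE 0.038, adjusted p = 0.000726, edgeR). CASP8 had a slope of -0.19 (SE 0.053, adjusted p = 0.0576, edgeR), which missed the threshold. It passed with DESeq2 (adjusted p = 0.0463), with library totals (0.0485), without the second library at 50% (0.0285) and with the HEK share of RNA in place of the share of cells (0.0137). It did not pass under the other alternatives, with a slope of -0.13 with the file set as a covariate (adjusted p = 0.519, edgeR) and of -0.16 without either library at 20% HEK cells (adjusted p = 0.312 and 0.256, edgeR).

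The remaining slopes were 0.084 for XIAP, 0.020 for TNFRSF10B, 0.0080 for FADD, -0.037 for CFLAR and -0.052 for FAS, with adjusted p-values from 0.452 to 0.966 in edgeR. Data simulated for this test gave calls for 10% of genes set to a 2-fold change between 20 and 80% HEK cells, and for 88% set to 4-fold. The median slope of all genes with ERCC totals as library sizes was 0.31, and on that scale CASP10 had a slope of 0.051 (adjusted p = 0.622, edgeR). Of the 54 pathway genes 43 were tested, of which 6 fell and none rose. They were the ligands TNFSF10 and LTA, the inhibitors BIRC3 and TNFAIP3, XAF1 and the necroptosis executor MLKL, of which MLKL and TNFAIP3 are named after their values were seen.

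The mixed libraries fell into both file sets, 6 in AS_1 and 4 in AS_2, and the slopes were recomputed within each. CASP10 had a slope of -0.32 in AS_1 (adjusted p = 0.0818, edgeR) and -0.11 in AS_2 (adjusted p = 0.473, edgeR), neither of which passed, and -0.26 with the file set as a covariate (adjusted p = 0.0319, edgeR). CASP8 had -0.28 in AS_1 (adjusted p = 0.185, edgeR) and 0.20 in AS_2 (adjusted p = 0.162, edgeR). The direction for CASP8 thus differed between file sets, where AS_2 held no mixture under 50% HEK cells.

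Mixing by RNA rather than by cell number was then used as the reference. The HEK share of RNA was taken from 804 genes specific to a line, with the members left out. In the order from 80 down to 20% HEK cells it was 96.1 and 96.2%, then 91.3 and 90.7%, 85.3 and 86.6%, 81.6 and 82.4%, and lastly 59.4 and 61.5%. The level expected of each gene followed from this share and the pure libraries. Taken from spike-ins instead, the share was 97.6, 93.8, 90.9, 87.0 and 71.5% in the same order, higher in each mixture. edgeR called 623 of 14516 genes (4.29%) at least 1.5-fold above or below the expectation, 283 above (1.95%) and 340 below (2.34%). None of the 7 members tested was called, and 1, FAS, had an unadjusted p under 0.05. Over all genes 4474 had one. Of the other receptors, TNFRSF10D was called below its expected level, by -0.84 on the log2 scale (adjusted p = 0.000307, edgeR). Its expectation rests on HEK libraries that varied widely (8.69 ± 6.46 CPM, SD, n = 2). Its slope over the mixtures was 0.091 (adjusted p = 0.320, edgeR) and did not pass.

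FAS was above its expected level by 0.29 on the log2 scale (SE 0.10, adjusted p = 0.0641, edgeR), above it in 7 of 10 libraries and in 5 of 5 mixture means. Flipping the signs of the 5 mixture means in an exact permutation test gave a two-sided p = 0.0625, the smallest that 5 mixtures allow. All 5 means were taken against the same pure libraries, so an error there shifts them together. Neither the 5 of 5 nor this p-value therefore measures agreement between independent mixtures. The expectation for FAS rests on few counts in the pure libraries. Without a pure library in turn the value ran from 0.19 to 0.40, with adjusted p-values (edgeR) of 0.00841 without the second HEK library and 0.0194 without the first Jurkat library, still under 1.5-fold. CASP8 was below its expected level in 8 of 10 libraries, by -0.23 (SE 0.12, adjusted p = 0.206, edgeR), but above it by 0.046 when the HEK share was taken from spike-ins (adjusted p = 0.808, edgeR). It was above it in both libraries at 80% HEK cells, by 0.27 and 0.41, and below it in both at 20%, by -0.57 and -0.44.

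CASP10 had the smallest spread around its expectation, within -0.33 and 0.10 in each of the 10 libraries (mean -0.063, SD 0.13), and its fitted difference moved from -0.056 to 0.14 with the HEK share taken from spike-ins (adjusted p = 0.285, edgeR). The fitted differences of FADD, CFLAR, TNFRSF10B and XIAP lay between -0.080 and 0.057, with adjusted p-values from 0.619 to 0.905 in edgeR. In data simulated for this test 100% of genes changed 2-fold were called. The simulation took the expected levels and the HEK share as known without error and gave all genes the same dispersion. It therefore does not show what shift was detectable in these libraries.

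**Figure D4:**
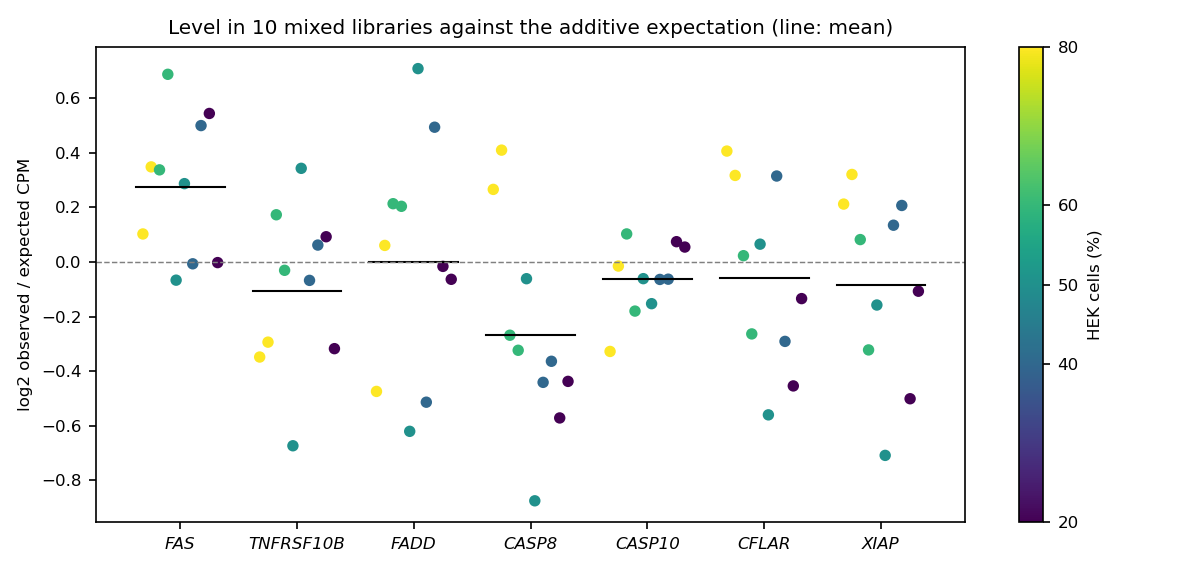
Log2 ratio of observed to expected CPM for the 7 members tested, in 10 mixed libraries ordered from 80 to 20% HEK cells within each gene and coloured by that percentage. Horizontal lines are means over the libraries, and the dashed line at 0 is additive mixing of RNA. CASP10 varied least (SD 0.13) and FADD most (SD 0.44).

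At 50% and at 40% HEK cells, libraries of the same mixture deviated differently from the expectation, in opposite directions for FADD and CFLAR. At 50% HEK cells the first library was at -0.62 for FADD, -0.061 for CASP8, 0.066 for CFLAR and -0.16 for XIAP. The second was at 0.71, -0.88, -0.56 and -0.71. At 40% FADD was at -0.51 in the first library and 0.49 in the second, and CFLAR at 0.32 and -0.29. FADD was thus high where CFLAR was low in both mixtures, within a pair of libraries made from the same share of cells. Over all 10 mixed libraries, the deviations of FADD and CFLAR had opposite signs in 6 and the same sign in 4 (Pearson r = -0.72).

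The relation of the deviations to the base composition of transcripts also differed between these libraries. Across 12278 genes, the Spearman correlation of the deviation from additive mixing with transcript GC content was -0.13 and 0.41 in the libraries at 50% HEK cells and -0.11 and 0.26 at 40%. It lay between -0.22 and 0.29 in the other mixed libraries. This is a correlation across genes, which are not independent replicates. The median GC content of the transcripts was 57.7% for FADD, 53.7% for TNFRSF10B, 46.4% for CFLAR, 46.1% for CASP10, 45.0% for XIAP, 42.7% for CASP8 and 38.9% for FAS, beside 48.4% over all genes. FAS, the lowest in GC, deviated by -0.066 and 0.29 at 50% and by -0.0064 and 0.50 at 40%, so like FADD it was higher in the library with the higher coefficient. Over the 10 mixed libraries, each member's deviation was also correlated with the coefficient of the library. Pearson r was 0.89 for FADD, 0.75 for TNFRSF10B, 0.58 for FAS and 0.35 for CASP10. It was -0.54 for XIAP, -0.69 for CASP8 and -0.83 for CFLAR. The second library at 50% was in AS_2 and the first in AS_1, while both at 40% were in AS_1. The part of base composition in the deviations of these genes was not tested.

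As a description of likeness, the gene of highest Pearson correlation over the 14 libraries on log2(CPM + 1) was sought for each member among 12543 protein coding genes. The 14 libraries share 2 cell lines, so most genes that differ between lines correlate. It was SYCP2 for CASP8 (r = 0.98), ACSF3 for CASP10 (r = 0.99), CYP46A1 for CFLAR (r = 0.96), FEM1A for TNFRSF10A (r = 0.96), AFMID for TNFRSF10B (r = 0.96) and SCRN1 for XIAP (r = 0.92). FAS had no gene at 0.9 or above, where CASP10 had 534 and XIAP 2.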

How the data were processed

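Polyadenylated RNA of 14 libraries was measured by RNA-seq. The authors aligned single-end reads with STAR 2.6.1b to GRCh38 joined with ERCC sequences, and RSEM 1.3.1 gave the counts. The deposited expected counts were not normalized, and the deposited TPM were scaled over genes and spike-ins together. The annotation behind the counts is not given in the sources used here. Between 50.3% and 62.6% of expected counts above 0 were whole to within 0.005. Identifiers without version were matched to GENCODE release 44, which named 57754 of 58440 genes and left at most 0.327% of counts unnamed.

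CPM used the total over genes, spike-ins left out, and TPM were rescaled likewise. Expected counts were rounded and tested with edgeR 4.0.16 (glmQLFit, glmQLFTest, TMM, filterByExpr, R 4.3.3) over all genes, with Benjamini-Hochberg adjustment at 0.05. The pure lines, the slope over 10 mixed libraries and an intercept against the level expected from additive mixing, with a lowest expected level of 0.2 CPM, were tested. The additive test asked for 1.5-fold as well, and the error of the pure means was not in it. Line-specific genes differed by a log2 of at least 3 and reached 20 CPM. Python 3.11.15, scipy 1.17.1, limma 3.58.1 and DESeq2 1.42.0 were also used. Libraries of a condition differed beyond sampling noise (chi-square over degrees of freedom from 20.8 to 148) and were counted separately.

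The members and lists were chosen with earlier results of these data known. All members were named, and of the pathway list all ligands and other receptors and the 3 largest called differences in each direction. Not every gene most like a member is reported here. The tests were checked on simulated data. Alternatives covered test, scaling, filter, adjustment, file set and each library left out. The deposited series table repeats these values and was left out.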

Additional observations from a re-analysis of the deposited data

How the results depend on the processing

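Between the pure lines, 6827 genes and 5 members were called. Spike-in totals as library sizes gave 15125 genes and Bonferroni 65 genes with 0 members. Leaving out 1 pure library gave 3131 to 6227 genes and 2 to 4 members, the lowest counts without either HEK library (3194 without the first, 3131 without the second), where the lone library of an arm is assumed to vary like the other line. Members with the higher mean in HEK numbered 3 by CPM and 6 per 1000 ERCC counts. In the trend, where 967 genes and 1 member were called, DESeq2 gave 1451 genes and 2 members, spike-in totals 13697 and 5, the file set as a covariate 512 genes, and library totals and the HEK share of RNA 2 members each. Leaving out 1 library gave 572 to 1155 genes, the lowest without the first library at 20%, and 1 to 2 members. Within file sets, alternatives added after the data were seen, AS_1 gave 203 genes and AS_2 599, with 0 members in both. In additive mixing, where 623 genes were called, leaving out 1 library gave 592 to 1192, with 1070 and 1192 without the first or second pure HEK library, and AS_2 gave 240. The members called were 0 under every alternative run. With spike-in totals the pure line log2 fold changes of FAS, CASP10 and CFLAR reversed to 2.65, 0.75 and 1.76, and the slopes of FAS, CASP8, CASP10 and CFLAR to 0.27, 0.12, 0.051 and 0.26. With the file set as a covariate the slopes of FADD, CFLAR and TNFRSF10B reversed to -0.054, 0.020 and -0.025, and within AS_2 those of FAS, FADD, CASP8, CFLAR and TNFRSF10B to 0.019, -0.19, 0.20, 0.27 and -0.13. Leaving out 1 library moved the slope of FADD from -0.013 to 0.049 and that of TNFRSF10B from -0.018 to 0.041. In additive mixing with the HEK share from spike-ins, CASP8, CASP10 and CFLAR reversed to 0.046, 0.14 and 0.073. Within AS_1 FADD gave -0.038, and within AS_2 CFLAR gave 0.092 and XIAP 0.028. Leaving out 1 library gave -0.038 to 0.12 for FADD, -0.17 to 0.14 for CFLAR, -0.26 to 0.13 for TNFRSF10B and -0.12 to 0.022 for XIAP. Spike-in totals put all genes on another scale by construction, and leaving out libraries leaves fewer samples. The cause of the other changes was not tested. Of the values of single members under the alternatives, 300 kept their direction and side of the threshold, 17 lost and 9 gained the call and 33 reversed. No paired analysis was possible because the labels give a running number of the mixture and no replicate number shared between conditions. Depth limits FAS and TNFRSF10A most, at 17 to 83 and 0 to 9.03 counts a library.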
